A study of Mus musculus with 4 samples.

Results

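C6, Adam23, Adamdec1, Hs3st2, Cntnap1, Kcnj16 and Dnahc9 were chosen by their measured difference between organs, which was among the largest of spleen over bone marrow in sorted mouse macrophages. They are 7 of the 17008 genes with a read in at least 1 library. The series has 4 RNA sequencing libraries of macrophages from C57BL/6J mice of 6 to 8 weeks, 1 for each group. The groups are normal bone marrow and normal spleen, taken at day 0, and bone marrow and spleen of mice with T cell acute lymphoblastic leukaemia (T-ALL), taken at day 21. T-ALL mice had received GFP+ cells isolated from leukaemic mice, into recipients that were not irradiated. Labels call the T-ALL libraries leukaemia-associated macrophages, and neither the surface markers of the sort nor any pooling of mice is stated in them. Since each group is 1 library, differences are described without a replicate check and without p-values.

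Macrophages of the spleen are made up of several resident populations. Those of the red pulp take up aged red cells and recycle their iron, a fate set by the transcription factor Spic, and those of the marginal zone border the B cell follicles and take up particles from the blood. Bone marrow holds resident macrophages of its own, which support red cell formation. The 7 genes do not form a pathway. C6 encodes a complement protein of the membrane attack complex. Adam23 and Adamdec1 belong to the ADAM family of disintegrins and metalloproteases, and Adam23 is a member without protease activity. Hs3st2 encodes a sulfotransferase of heparan sulfate chains. Kcnj16 encodes Kir5.1, a subunit of inwardly rectifying potassium channels. Cntnap1 encodes Caspr, an adhesion protein of myelinated axons, and Dnahc9 (now Dnah9) the heavy chain of a dynein motor of cilia.

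Scaled library totals ran from 8939756 to 9856658 uniquely mapped reads, so that 1 read was worth 0.101 to 0.112 CPM (counts per 1e6 reads of the scaled total). Emr1, which encodes the macrophage antigen F4/80, had levels of 39.5 and 303 CPM in the marrow libraries (normal, then T-ALL) and of 698 and 429 CPM in the spleen libraries, and the 16 genes fixed as a macrophage core had reads in every library. Genes of other cells were measured beside them. The 9 neutrophil genes summed to 48512 and 30147 CPM in normal and T-ALL bone marrow and to 571 and 193 CPM in the spleens. The 8 B cell genes summed to 325, 377, 2791 and 1380 CPM in normal bone marrow, T-ALL bone marrow, normal spleen and T-ALL spleen, and the 11 T cell genes to 169, 705, 1179 and 3305 CPM. In that order, marginal zone macrophage genes (5) summed to 23.2, 225, 385 and 355 CPM, dendritic cell genes (12) to 441, 694, 1949 and 930 CPM, plasma cell genes (5) to 275, 448, 894 and 943 CPM and endothelial genes (9) to 184, 190, 404 and 281 CPM. NK cell (6), erythroid (6), megakaryocyte (5) and stromal genes (13, of which 11 had a read) summed to at most 352 CPM in any library. Sex-linked transcripts differed between the conditions and between the T-ALL organs. Xist, the RNA that silences an X chromosome in female cells, was at 861 and 849 CPM in the normal bone marrow and spleen libraries and at 0.644 and 416 CPM in those of T-ALL, and Ddx3y, on the Y chromosome, went from 0 reads in each normal library to 874 (marrow) and 532 (spleen) in T-ALL. In such bulk libraries, fewer cells of a type and less RNA per cell cannot be told apart.

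The 7 genes showed 2 patterns. C6, Adam23, Adamdec1, Kcnj16 and Hs3st2 were high in both spleen libraries and at or near 0 in both bone marrow libraries. Cntnap1 and Dnahc9 were high in the T-ALL spleen library alone of the 4, so the name spleen-restricted holds for them in leukaemia but not in health. Below, a gene is called higher or lower if its log2(CPM + 1) values differed by 2-fold or more and the higher of them stood for at least 10 CPM. All log2 folds are differences on this log2(CPM + 1) scale and understate the change of low genes. Ratios are of CPM, followed in parentheses by a 95% interval from the pair of counts (exact binomial) that covers counting error only.

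**Figure D1:**
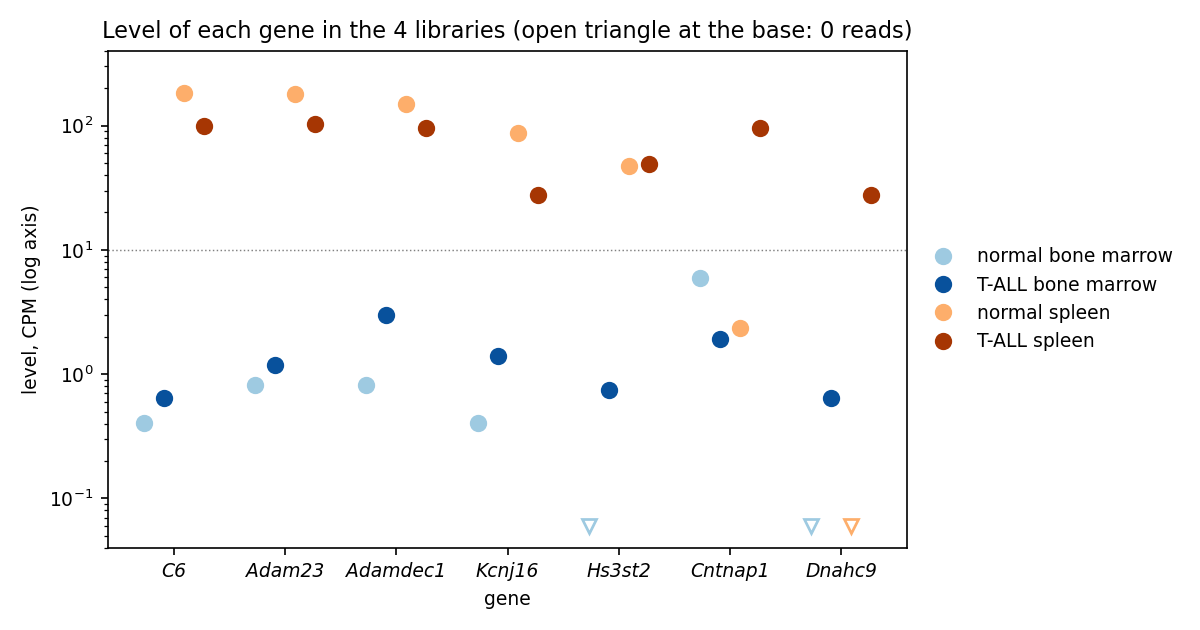
Level of each of the 7 genes in CPM (log axis) in the 4 libraries, 1 point for each library, with an open triangle at the base for 0 reads and a dotted line at the 10 CPM minimum. For C6, Adam23, Adamdec1, Kcnj16 and Hs3st2 both spleen points lie at 27.4 CPM or above and both bone marrow points at or below 3.0 CPM, whereas Cntnap1 and Dnahc9 pass 10 CPM in T-ALL spleen alone.

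C6 and Adam23 had nearly the same profile. C6 (Gene ID 12274) had 4 reads in normal bone marrow, 6 in T-ALL bone marrow, 1623 in normal spleen and 909 in T-ALL spleen, or 0.406, 0.644, 182 and 98.4 CPM. Adam23 (Gene ID 23792) had 8, 11, 1614 and 949 reads in the same order, or 0.812, 1.18, 181 and 103 CPM. The libraries do not overlap between organs for either gene, and normal spleen was the highest for both. The ratio of normal spleen to normal bone marrow was 447 (174 to 1644) for C6 and 222 (113 to 516) for Adam23. In T-ALL it was 153 (69.9 to 418) and 87.0 (48.4 to 175). These organ ratios, and the lack of overlap between organs, describe the values that chose the genes, and are no test of them.

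Adamdec1, whose protein is a secreted member of the ADAM family known from macrophages and dendritic cells, was the one of these genes with the most bone marrow reads in T-ALL. Adamdec1 (Gene ID 58860) had 8, 28, 1345 and 882 reads, in the order normal bone marrow, T-ALL bone marrow, normal spleen and T-ALL spleen, or 0.812, 3.0, 150 and 95.5 CPM. Its ratio of spleen to bone marrow was 185 (93.8 to 430) in normal mice and 31.8 (21.8 to 48.1) in T-ALL, and these intervals do not overlap. Kcnj16 (Gene ID 16517) had 4, 13, 772 and 253 reads, or 0.406, 1.4, 86.4 and 27.4 CPM. It showed the same narrowing of the organ ratio, from 213 (82.8 to 783) to 19.6 (11.3 to 37.4).

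Hs3st2 (Gene ID 195646) had 0 reads in normal bone marrow, 7 in T-ALL bone marrow, 423 in normal spleen and 455 in T-ALL spleen. These were 0, 0.751, 47.3 and 49.3 CPM, so both spleen libraries stood at one level. The 0 reads allow up to 3 reads, or 0.304 CPM. Against that floor, Hs3st2 was at least 155-fold higher in normal spleen than in normal bone marrow, where the exact interval of the pair of counts starts at 126. In T-ALL the ratio was 65.6 (31.6 to 164).

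Cntnap1 and Dnahc9 stood apart from these 5. Cntnap1 (Gene ID 53321) had 59 reads in normal bone marrow, 18 in T-ALL bone marrow, 21 in normal spleen and 888 in T-ALL spleen, or 5.99, 1.93, 2.35 and 96.1 CPM. In normal mice its ratio of spleen to bone marrow was 0.392 (0.226 to 0.655), the reverse of the other genes, at levels under the 10 CPM minimum. In T-ALL it was 49.8 (31.3 to 84.4). Dnahc9 (Gene ID 237806) had 0 reads in normal bone marrow, 6 in T-ALL bone marrow, 0 in normal spleen and 255 in T-ALL spleen, where it reached 27.6 CPM. Its T-ALL ratio of spleen to bone marrow was 42.9 (19.4 to 118), and no organ ratio can be formed in normal mice.

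By the size rule, 5 of the 7 genes were called higher in spleen than in bone marrow in normal mice and 0 lower, and Cntnap1 and Dnahc9 did not reach the minimum. Of all 10072 genes that reached it, 16.1% were called higher and 14.0% lower. In T-ALL, 7 of 7 were called higher and 0 lower, where of 9852 genes 5.44% were called higher and 11.0% lower. Nothing is read from these counts, since the organ difference chose the genes. The median log2 fold of the 7 was 5.96 in normal mice and 4.84 in T-ALL, beside -0.04 and 0.01 over all genes that reached the minimum.

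The place of the 7 in the full ranking shows how the choice was made. In normal mice C6, Adam23 and Adamdec1 held ranks 2, 3 and 4 from the highest spleen over bone marrow log2 fold, Kcnj16 rank 9 and Hs3st2 rank 15. The genes between and beside them that were not chosen were Cr2 at rank 1 (log2 fold 7.26), Clec4n (6.37), Dtx1 (6.14), Itgad (6.09), 1300002K09Rik (5.99), Sema6d (5.95), Abcc3 (5.88), Ccr3 (5.78), Mertk (5.75) and Apol7c (5.69). Cr2, the complement receptor CD21 of B cells and follicular dendritic cells, led all genes. In T-ALL the 7 held ranks 2 to 6 (C6, Adam23, Cntnap1, Hs3st2 and Adamdec1), 9 (Dnahc9) and 18 (Kcnj16), and rank 1 was Xist.

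Macrophage genes differed between the organs as well. Emr1 was 17.7-fold higher (16.0 to 19.6) in normal spleen than in normal bone marrow, and Csf1r, which encodes the receptor of the growth factor M-CSF, 18.1-fold higher (17.1 to 19.2). Spic was 53.6-fold higher (39.7 to 74.3) and Vcam1, an adhesion molecule of resident macrophages, 14.4-fold higher (13.6 to 15.2). Marco, a scavenger receptor gene of marginal zone macrophages, had 1 read in normal bone marrow and 336 in normal spleen. In T-ALL these organ ratios were near 1 for Emr1, at 1.42 (1.35 to 1.49), for Csf1r, at 1.5 (1.46 to 1.54), and for Vcam1, at 1.48 (1.44 to 1.53), and Spic was at 4.25 (3.81 to 4.76). Marco was at 26.5 in that pair of libraries, with 36 and 946 reads, within the range of the 7 genes, which ran from 19.6 for Kcnj16 to 153 for C6. The 7 genes were chosen for this difference, so nothing is read from their place beside these references. For each 100 Emr1 reads, C6 had 1.03 reads in normal bone marrow, 0.212 in T-ALL bone marrow, 26.0 in normal spleen and 22.9 in T-ALL spleen. Adam23 had 2.06, 0.389, 25.9 and 23.9 in the same order, and Adamdec1 2.06, 0.990, 21.6 and 22.2. Per Emr1 read, these 3 genes thus lay at nearly one level in the 2 spleens, and the other 4 did not. Kcnj16 went from 12.4 reads per 100 in normal to 6.38 in T-ALL spleen, Hs3st2 from 6.78 to 11.5 and Dnahc9 from 0 to 6.43. Cntnap1 had 15.2 in normal bone marrow, 0.636 in T-ALL bone marrow, 0.337 in normal spleen and 22.4 in T-ALL spleen.

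**Figure D2:**
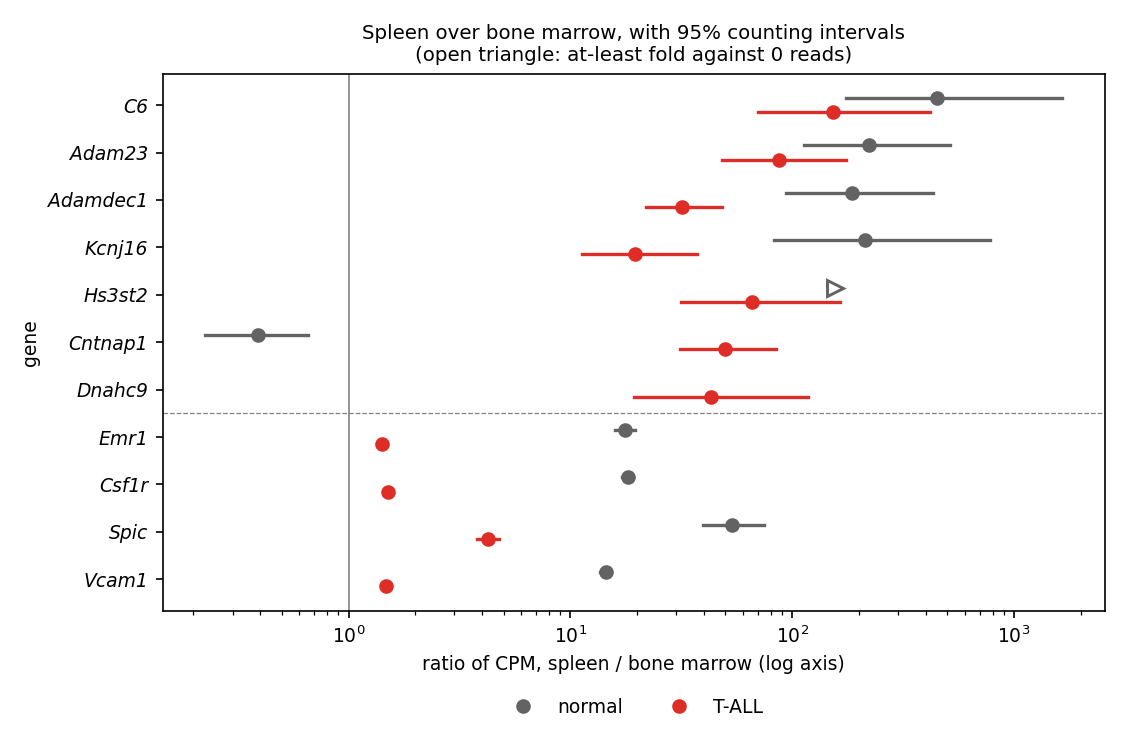
Ratio of CPM in spleen to bone marrow (log axis) for the 7 genes and, below the dashed line, for 4 macrophage genes, in normal mice (grey) and T-ALL (red), with bars for the 95% counting interval and an open triangle for an at-least fold against 0 reads. In T-ALL the 4 macrophage genes lie between 1.42 and 4.25 and the 7 genes at 19.6 or above, and Cntnap1 is the only gene left of 1, in normal mice.

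B cell genes moved with the organ difference as well. All 8 were called higher in normal spleen (16.1% over all genes), with a median log2 fold of 2.70, and 7 of 8 in T-ALL (5.44% over all genes). Their summed levels, given above, had the same order over the 4 libraries as those of C6, Adam23 and Adamdec1, with normal spleen the highest and T-ALL spleen next. This order was not particular to B cells, since the dendritic cell and endothelial genes had it too, and so did the 14 red pulp macrophage genes, at 577, 3964, 11497 and 6290 CPM. The T cell genes had another order, with T-ALL spleen the highest. Nerve and Schwann cell genes summed to 191, 207, 166 and 141 CPM in normal bone marrow, T-ALL bone marrow, normal spleen and T-ALL spleen, most of it Mbp, and the Schwann cell gene Sox10 had no line in any library. One gene of that list, the neuronal tubulin Tubb3, was highest in T-ALL spleen like Cntnap1, with 10, 12, 11 and 92 reads in the same order, or 1.01, 1.29, 1.23 and 9.96 CPM. Ciliated cell genes summed to 5.99, 5.37, 1.68 and 2.81 CPM, of which Rsph1 made up 5.28 and 4.19 CPM in the marrow libraries. Foxj1, the master regulator of motile cilia, was highest in T-ALL spleen like Dnahc9, with 1, 3, 5 and 21 reads. The part of RNA from B cells, nerve or ciliated cells in these differences was not tested.

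Promoter windows were looked up for the 7 genes in RefSeq (GRCm38.p6), which gave a window for 5 of them, 250 bases before to 50 after each annotated start. The windows of C6 and Adam23 are shown because these genes had the most alike profiles, and that of Hs3st2 because it held a searched motif. The window of C6 lies at chr15:4726960-4727259 (plus strand), Adam23 at chr1:63445641-63445940 (plus strand) and Hs3st2 at chr7:121392046-121392345 (plus strand). Capitals mark a match to GAGGAA, the core that PU.1 and SPI-C of the ETS family bind.
C6: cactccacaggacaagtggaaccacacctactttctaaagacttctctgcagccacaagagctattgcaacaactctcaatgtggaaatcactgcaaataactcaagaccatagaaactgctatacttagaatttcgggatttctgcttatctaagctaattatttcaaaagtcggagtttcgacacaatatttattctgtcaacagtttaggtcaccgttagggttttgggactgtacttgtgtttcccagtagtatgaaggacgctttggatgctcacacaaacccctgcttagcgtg
Adam23: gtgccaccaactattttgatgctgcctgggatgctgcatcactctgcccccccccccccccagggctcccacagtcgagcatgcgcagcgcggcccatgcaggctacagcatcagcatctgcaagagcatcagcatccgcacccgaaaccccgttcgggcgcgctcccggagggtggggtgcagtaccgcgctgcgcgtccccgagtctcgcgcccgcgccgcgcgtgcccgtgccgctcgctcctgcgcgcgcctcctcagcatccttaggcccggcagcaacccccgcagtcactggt
Hs3st2: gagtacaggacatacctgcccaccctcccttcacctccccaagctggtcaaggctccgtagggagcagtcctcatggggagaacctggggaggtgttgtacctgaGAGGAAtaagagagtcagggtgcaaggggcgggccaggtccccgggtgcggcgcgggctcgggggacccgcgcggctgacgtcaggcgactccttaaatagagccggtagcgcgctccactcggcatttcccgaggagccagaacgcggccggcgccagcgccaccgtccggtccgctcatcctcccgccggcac

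The 2 genes with the nearest profiles had unlike windows, with 41.7% G and C for C6 and 70.0% for Adam23, beside a median of 52.7% over 32851 windows of all genes. Besides GAGGAA, the windows were searched on both strands for TGACTCA, the binding site of AP-1, whose other common form is its reverse complement. The core of the TATA box was searched as TATAAA, and no match overlapped another. Over all windows 28.3% held GAGGAA, 5.20% an AP-1 site and 13.6% TATAAA. In the 8 windows of the 5 genes, GAGGAA was found once, in Hs3st2 at position -145 from the start site. TATAAA was found in 1 of the 4 windows of Kcnj16, at position -133, and no AP-1 site was found. No match says only that these letters are not in the window.

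In spleen, the genes split under T-ALL. Cntnap1 and Dnahc9 rose past 2-fold, Kcnj16 fell past it, and C6, Adam23, Adamdec1 and Hs3st2 did not pass. Cntnap1 was 40.9-fold higher (26.6 to 66.4) in T-ALL than in normal spleen. Dnahc9, with 0 reads in normal spleen and 255 in T-ALL spleen, was at least 82.3-fold higher against the floor of 3 reads, where the exact interval starts at 66.4. Kcnj16 was 3.15-fold lower (2.73 to 3.65). Of the 9774 genes that reached the minimum, 10.3% were called higher and 11.0% lower, and the 7 genes gave 2 higher and 1 lower. This comparison shares its libraries with those that chose the genes. Xist and Ddx3y, given above, differ in this pair and in the pair of T-ALL organs, on which the values of Cntnap1 and Dnahc9 rest, and their part in these differences was not tested.

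Of the 4 genes that did not pass, C6 had a T-ALL to normal ratio of 0.542 (0.499 to 0.588) in spleen, Adam23 of 0.569 (0.525 to 0.617) and Adamdec1 of 0.635 (0.582 to 0.691). These 3 ratios lie beside those of Csf1r, 0.589 (0.576 to 0.601), and Emr1, 0.615 (0.591 to 0.641). Hs3st2 had a ratio of 1.04 (0.910 to 1.19), an interval that includes 1. The macrophage core genes had a median log2 fold of -1.07 in this comparison, with 10 of 16 called lower, and the 14 red pulp genes one of -0.84, with 6 called lower and 1 higher. Set against the macrophage core median, the log2 folds of C6, Adam23 and Adamdec1 change sign, from -0.88, -0.81 and -0.65 to 0.20, 0.27 and 0.42. Hs3st2 goes from 0.06 to 1.13 and is then called higher, so that 3 of the 7 genes are in place of 2. Kcnj16 stays below 0 there but goes from -1.62 to -0.55, so that it is no longer called. On that scale 4881 of all genes were called higher and 111 lower, in place of 1008 and 1080.

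T-lineage genes moved with the rise of Cntnap1 and Dnahc9. The 11 T cell genes had 8 called higher and 1 lower in T-ALL spleen. Of the 10 genes of thymocytes and T-ALL cells, 7 reached the minimum, with 6 called higher and 0 lower. The sums of these 10 were 454 CPM in normal and 1301 CPM in T-ALL spleen. Over all genes 10.3% were called higher and 11.0% lower in that comparison. In bone marrow the same T cell genes were higher in T-ALL too, in 10 of the 10 that reached the minimum, with sums of 169 and 705 CPM. Over all genes 8.01% were called higher and 1.03% lower there. Cntnap1 was at 1.93 CPM and Dnahc9 at 0.644 CPM in the T-ALL bone marrow library. The part of T-lineage RNA in either rise was not tested.

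In bone marrow all 7 genes were under 10 CPM in both libraries, so 0 of 7 could be called, beside 8.01% called higher and 1.03% lower of 9716 genes. C6 went from 4 to 6 reads, a ratio of 1.59 (0.376 to 7.64), and Adam23 from 8 to 11, a ratio of 1.45 (0.533 to 4.17). Neither difference was detectable at this depth. Adamdec1 went from 8 to 28 reads, a ratio of 3.70 (1.64 to 9.40), and Kcnj16 from 4 to 13, a ratio of 3.44 (1.06 to 14.5). Hs3st2 went from 0 to 7 reads and Dnahc9 from 0 to 6, with intervals that start at 1.52 and 1.25. Cntnap1 went the other way, from 59 to 18 reads, a ratio of 0.323 (0.179 to 0.555). Emr1 was 7.69-fold higher (6.91 to 8.57) in the same pair, and the 14 red pulp genes were all called higher. Spic was 9.64-fold higher (7.03 to 13.5). Set against the macrophage core median, which was a log2 fold of 2.42, the 7 log2 folds ran from -3.67 for Cntnap1 to -1.27 for Adamdec1, so every positive one changed sign, and 26 of all genes were called higher and 9223 lower, in place of 778 and 100. Of the red pulp list, Vcam1 was at 136 CPM in normal and 656 CPM in T-ALL bone marrow, and Hmox1 at 55.5 and 510 CPM. C6 and Adam23 were at 0.644 and 1.18 CPM in T-ALL bone marrow. The part of macrophage RNA in these levels was not tested.

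**Figure D3:**
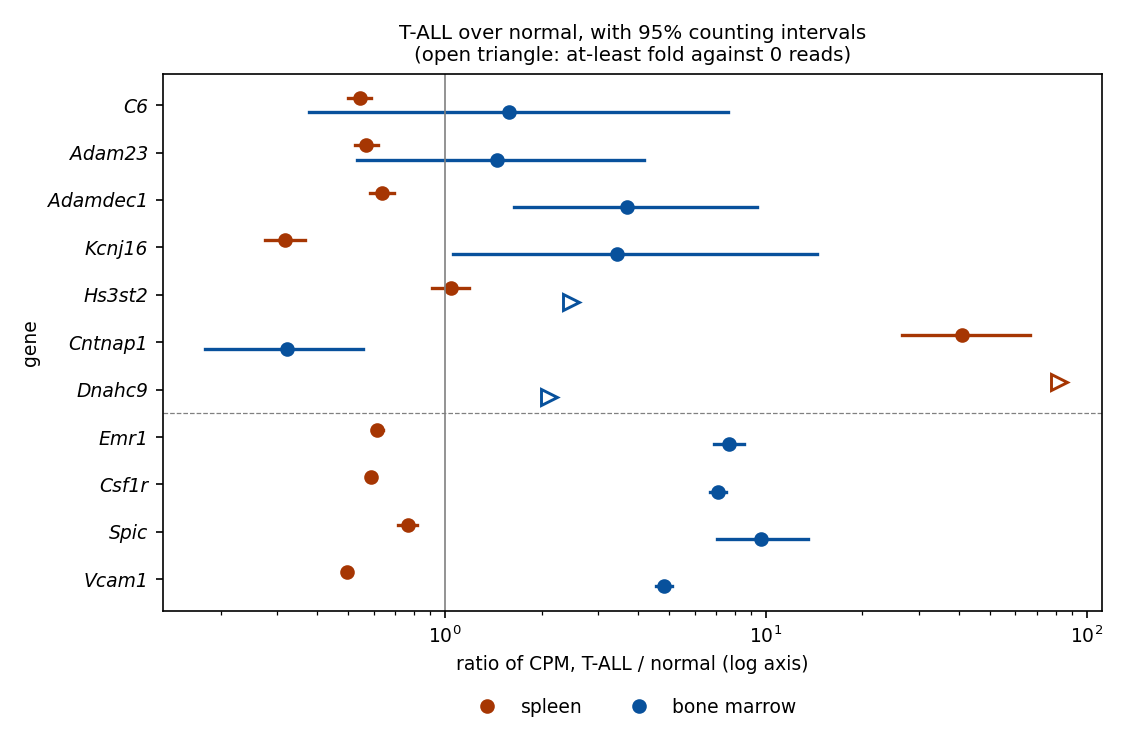
Ratio of CPM in T-ALL to normal (log axis) in spleen (brown) and bone marrow (blue) for the 7 genes and, below the dashed line, for 4 macrophage genes, with bars for the 95% counting interval and an open triangle for an at-least fold against 0 reads. In spleen C6, Adam23 and Adamdec1 lie beside the macrophage genes, Kcnj16 lies below them, and Cntnap1 and Dnahc9 lie at 40.9 and at least 82.3.

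Compared per length, the order of the 7 genes differed between the spleens. In normal spleen the deposited RPKM (reads scaled by gene length and library total) was 63.1 for C6, 62.1 for Adamdec1, 27.0 for Adam23, 23.1 for Kcnj16, 20.8 for Hs3st2 and 0.436 for Cntnap1, and Dnahc9 had no line. In T-ALL spleen it was 39.9 for Adamdec1, 34.7 for C6, 21.9 for Hs3st2, 18.1 for Cntnap1, 15.6 for Adam23, 7.43 for Kcnj16 and 2.02 for Dnahc9. Hs3st2 thus moved from the fifth to the third place with nearly the same level, and Dnahc9, with a listed length of 13774 bases, was the lowest in both.

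The share of each gene's length that reads covered set Dnahc9 apart. Genes with 1 read had 49 bases covered, which gives the read length. In T-ALL spleen, the deposited coverage was 98.3% for C6, 98.4% for Adamdec1, 98.0% for Hs3st2, 95.2% for Cntnap1, 89.1% for Kcnj16 and 84.7% for Adam23. The 255 reads of Dnahc9 covered 28.6% of its length, where 59.6% would be covered by reads placed evenly. Of the 23 other genes over 50% as long and within 10% of its mean depth in that library, all covered more, from 28.7% to 60.4% with a median of 55.5%. In T-ALL bone marrow its 6 reads covered 2.11%, equal to even placement. Any 6 reads with little overlap would give this share, so it does not show where they lay. The reads of Dnahc9 in T-ALL spleen thus lay on less of the listed length than even placement would give. Adam23 was also less covered than most, at 84.7%, beside a median of 96.5% over 328 genes of like depth, of which 38 had a lower coverage.

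**Figure D4:**
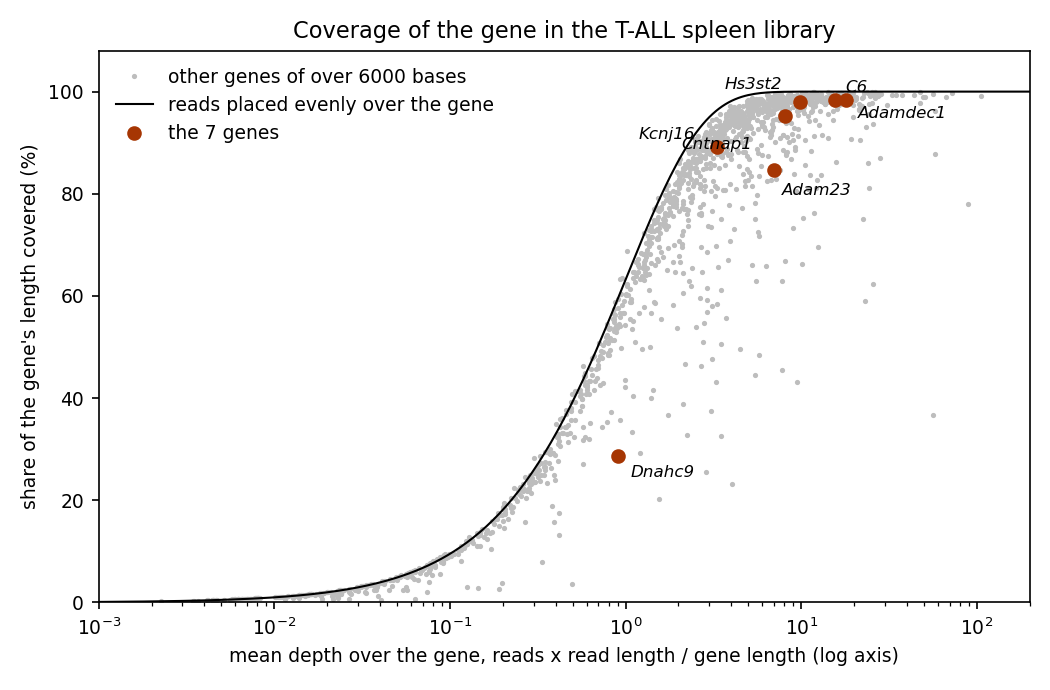
Share of the gene's length covered by reads against mean depth (log axis) in the T-ALL spleen library, with the 7 genes in brown, other genes of over 6000 bases in grey and a line for reads placed evenly. Dnahc9, at 28.6%, lies far below the line value of 59.6%, while C6, Adamdec1, Hs3st2 and Cntnap1 lie at 95.2% or above.

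Neighbouring genes were taken from the RefSeq order, by the rule of the nearest gene on each side with a read in any library. Genes without a line in any library were passed over and may lie nearer. Cntnap1, Kcnj16 and Dnahc9 all lie on chromosome 11, C6 on chromosome 15, Adam23 on 1, Adamdec1 on 14 and Hs3st2 on 7. Card6, a neighbour of C6 by this rule, had the library order of C6 with smaller differences. It was at 13.2, 27.0, 86.0 and 40.4 CPM in normal bone marrow, T-ALL bone marrow, normal spleen and T-ALL spleen. Oxct1, on the other side of C6, was highest in normal bone marrow, with 1701, 1267, 1064 and 1263 reads. Adam28, the neighbour of Adamdec1 and another ADAM gene, had 4, 1, 8 and 2 reads in that order. Kcnj2, a neighbour of Kcnj16 by the same rule, encodes another inward rectifier and had 150, 252, 179 and 66 reads. Ccr10, a chemokine receptor gene, overlaps Cntnap1 and had 13, 10, 16 and 54 reads, with T-ALL spleen the highest as for Cntnap1. Whether the counts used strand is not given, so reads where these 2 genes overlap cannot be assigned to one of them, though the 888 reads of Cntnap1 in T-ALL spleen covered 95.2% of its length.

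The families of the 7 genes were then read from lists of 6 families. Of the 11 genes of the terminal complement pathway and its inhibitors, C6 was the only one to reach 10 CPM in any library. C5, listed as Hc, had 0 reads in normal spleen and 17 in T-ALL spleen, C8a had at most 1 read in any library, and C7, C8b, C9 and Vtn had no line. The highest of the others per length in normal spleen were C8g, at 2.35 RPKM, and Clu, the inhibitor clusterin, at 1.66 RPKM. The transcript of C6 was thus measured in spleen with little or no RNA of the proteins that assemble with it.

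Of 14 ADAM genes, 10 reached the minimum in the normal organ comparison, with 6 called higher in spleen and 1 lower. Adam23 and Adamdec1 are among the 6 by the choice of genes. Over all genes that reached the minimum, 16.1% were called higher and 14.0% lower. Beside Adam23 and Adamdec1, the higher ones were Adam8 (19.0 CPM in normal marrow against 134 in normal spleen), Adam19 (20.4 and 157 CPM), Adam11 (11.5 and 67.8 CPM) and Adam22 (5.88 and 48.4 CPM). Adam11 and Adam22 are, like Adam23, members without protease activity. Both were called lower in T-ALL spleen, at 14.2 and 12.5 CPM, where Adam23 was not called. Adam8 was lower in T-ALL spleen, at 16.0 CPM, and higher in T-ALL bone marrow, at 99.1 CPM. Adam10, a broadly expressed sheddase, was at 248, 250, 173 and 167 CPM in normal bone marrow, T-ALL bone marrow, normal spleen and T-ALL spleen, and was called in no comparison. In T-ALL, 3 of 10 ADAM genes were higher in spleen than in bone marrow (Adam19, Adam23 and Adamdec1) and 2 lower. Over all genes these shares were 5.44% and 11.0%, and Adam23 and Adamdec1 were chosen for the organ difference.

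Of 24 genes of heparan sulfate chain synthesis and editing, 13 reached the minimum in the normal organ comparison, with 5 called higher in spleen and 0 lower. They were Hs3st2, Ndst1 (70.4 CPM in marrow against 252 in spleen), Hs6st1 (33.6 and 167 CPM), the sulfatase Sulf2 (24.3 and 126 CPM) and Hs3st3b1 (1.93 and 12.0 CPM). Hs3st2 is among the 5 by the choice of genes, and over all genes 16.1% were called higher and 14.0% lower. In T-ALL, Hs3st2, chosen for the organ difference, was the only one of 12 called higher in spleen, with 2 lower, Sulf2 and the heparanase Hpse. Over all genes 5.44% were called higher and 11.0% lower in that comparison. Among the 3-O-sulfotransferases, Hs3st2 had the highest RPKM in normal spleen, 20.8, followed by Hs3st1 at 5.49 and Hs3st3b1 at 1.98, and the sulfotransferases Hs6st1 and Ndst1, which act on other positions, were at 44.5 and 41.3.

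Kcnj10 accompanied Kcnj16 in spleen. Kcnj10 encodes Kir4.1, a known partner of Kir5.1 in heteromeric channels. It was at 7.20 CPM in normal bone marrow, 70.4 CPM in T-ALL bone marrow, 283 CPM in normal spleen and 127 CPM in T-ALL spleen. Unlike Kcnj16, it thus stood at 70.4 CPM in T-ALL bone marrow, where it was called higher, and its T-ALL ratio of spleen to bone marrow was 1.80. Of the 15 inward rectifier genes, 4 reached the minimum between the normal organs. Of these, 3 were called higher in normal spleen, Kcnj16, Kcnj10 and Kcnj9 (0.101 CPM, 1 read, in bone marrow and 20.9 CPM in spleen). Kcnj16 is among the 3 by the choice of genes, and over all genes 16.1% were called higher and 14.0% lower. All 4 that reached the minimum in spleen, the same 3 and Kcnj2, were called lower in T-ALL. They ran from 3.06 lower on the log2 scale for Kcnj9 to 1.15 lower for Kcnj10. Over all genes 11.0% were called lower in that comparison.

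The axonal partners of Cntnap1 did not follow it. Cntn1 (contactin) had 0 reads in T-ALL spleen, and Nfasc (neurofascin), which with contactin and Caspr forms the junction of axon and myelin, went from 12.5 CPM in normal to 2.92 CPM in T-ALL spleen, where it was called lower. Epb4.1l3, the scaffold protein 4.1B that binds Caspr, was at 105 CPM in normal and 89.1 CPM in T-ALL spleen. Of the 10 paranodal genes, only these 3 reached the minimum between the spleens: Cntnap1, called higher in T-ALL, Nfasc and Epb4.1l3, which was not called. Of the 15 dynein heavy chain genes of cilia, 3 reached the minimum there. Dnahc9 was called higher in T-ALL, Dnahc2 was called lower, from 14.9 to 5.09 CPM, and Dnahc8, at 26.8 and 39.2 CPM, was not called. Over all genes 10.3% were called higher and 11.0% lower. The remaining genes of both lists were too low to be called.

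The genes with the most alike profiles over the 4 libraries were found by the root mean square distance between log2(CPM + 1) profiles, each centred on its own mean. Adam23 was the nearest of 10306 genes to C6 and C6 the nearest to Adam23, at a distance of 0.182, and Adamdec1 and Cr2 came next for both, at 0.443 to 0.633. The nearest to Adamdec1 were Hs3st2 (0.308), Cr2 (0.328) and Adam23 (0.443). The nearest to Hs3st2 were Adamdec1, Fcer2a (0.501), which encodes the B cell Fc receptor CD23, and Adam23 (0.573). Kcnj16 was nearest to Dnase1l3 (0.251), a DNase secreted by macrophages and dendritic cells, Spint1 (0.379) and H2-DMb2 (0.409), none of them among the 7. Cntnap1 was nearest to 9230105E05Rik (0.590), Dnahc9 (0.697) and Smoc1 (0.809), and Dnahc9 to 4930550C14Rik (0.242), 9230105E05Rik (0.277) and Cpeb1 (0.406). Each of these nearest genes of Cntnap1 and Dnahc9 was at 16.8 CPM or above in T-ALL spleen and at 2.13 CPM or below in the other 3 libraries.

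Distances among the 7 show the same 2 groups. Among C6, Adam23, Adamdec1, Hs3st2 and Kcnj16 they ran from 0.182 to 0.914, between Cntnap1 and Dnahc9 the distance was 0.697, and between a gene of one group and a gene of the other they ran from 2.31 to 3.06. The mean profile of all 7 lay between the groups. Its nearest genes were Pcolce2, Il9r, Ppap2b, Fcer2a, Marco, Ccr7, 2900052N01Rik, Cxcr5, Ppm1n and Dgki, at 0.555 to 0.757. Marco, known as a marginal zone macrophage receptor for particles, was at 0.101, 3.86, 37.6 and 102 CPM in normal bone marrow, T-ALL bone marrow, normal spleen and T-ALL spleen. These distances rest on 4 libraries and describe them, and the profiles were among those the choice of genes used.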

How the data were processed

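RNA sequencing of sorted macrophages was analysed from 4 deposited tables, 1 library for each group, with groups taken from the sample titles. Per the file headers, each table gives counts of uniquely mapped reads, gene length, coverage (the percent of the length covered) and RPKM. The deposited RPKM was recomputed to within 9.2e-06% from counts, lengths and totals. The deposited counts add up to each header's total, and a gene without a line was set to 0. Aligner, build, annotation and strand are not stated in labels or headers. Genes are named by the files' symbols, and a listed gene without one was looked up through its RefSeq synonyms (GRCm38.p6); 23 symbols stored as dates were restored by Gene ID.

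Library sizes were scaled over all genes by TMM (edgeR 4.0.16, R 4.3.3). Tables were handled in pandas 2.3.3 and numpy 2.4.6 (Python 3.11.15), intervals came from scipy 1.17.1, and figures were drawn with matplotlib 3.10.9. With 1 library per group no test was fitted. The size rule takes 2-fold on log2(CPM + 1) and 10 CPM in the higher library. Against 0 reads a floor of 3 reads per library was used. PCR copies cannot be told from separate molecules here, so intervals and floors cover counting error only. Scaled totals of 8939756 to 9856658 reads limit what can be seen in genes of few reads.

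The 7 genes, the 16 cell type lists and the 6 family lists were chosen with earlier results of these data known. The text names the 7 genes, up to 3 genes of each family by RPKM in normal spleen with those called between normal organs, the 10 nearest genes to the mean profile, the 3 nearest to each gene and the 10 largest organ differences outside the choice. Xist and Y-linked genes were left out of the nearest profiles. Named outside this rule, after their values were seen, are Adam28, Kcnj2, Ccr10, Hc, C8a, C7, C8b, C9, Vtn, Hpse, Cntn1, Hs3st1, Hmox1, Mbp, Tubb3, Rsph1, Card6, Oxct1, Sox10, Foxj1, Xist and Ddx3y. Other scalings, pseudocounts, minimums, RPKM and a 4-fold threshold were tried.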

Additional observations from a re-analysis of the deposited data

Results flagged for a closer look

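Cntnap1 moved in opposite directions in the organs. Its log2 fold of T-ALL over normal was 4.86 in spleen and -1.25 in bone marrow, a difference of 6.11, with counting intervals on either side of no change. The same 4 values make its spleen over bone marrow log2 fold 5.05 in T-ALL and -1.06 in normal mice, again 6.11 apart. Adamdec1 had a log2 fold of -0.65 in spleen and 1.14 in bone marrow, a difference of -1.79. Kcnj16 had -1.62 and 0.77, a difference of -2.39. With 1 library per group these differences were not tested, and the bone marrow levels of all 3 genes are below 10 CPM.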

How the results depend on the processing

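No paired analysis was possible because each group has 1 library, and no replicate could be left out. Of 168 log2 folds of single genes under other scalings, pseudocounts or RPKM, 134 counted as unmoved and 34 as moved. The limit was the distance from the centre to an end of the log2 counting interval. Comparisons of Hs3st2 or Dnahc9 with 0 reads in a library have an open-ended interval. All their folds thus fell among the 134, which shows no stability for them. Of called values, 0 changed sign. The sign changes against the core median given in the report are of genes that were not called. With no minimum, 1 of the 7 genes was higher (Adamdec1) and 1 lower (Cntnap1) in T-ALL bone marrow, and 1 lower (Cntnap1) in normal spleen than normal bone marrow, each in place of 0. With a minimum of 50 CPM, 4 in place of 7 were higher in T-ALL spleen than T-ALL bone marrow. Under that minimum, and with RPKM at a minimum of 5, 1 gene (Cntnap1) in place of 2 was higher in T-ALL than normal spleen. The 1 lower gene there (Kcnj16) became 0 against the macrophage core median and at 4-fold. The other counts of the 7 genes stayed within 1.5 times. Over all genes, the counts higher and lower at a minimum of 50 CPM were 971 and 789 (normal organs), 293 and 566 (T-ALL organs), 605 and 566 (T-ALL against normal spleen) and 415 and 51 (bone marrow), and at 4-fold 745 and 585, 155 and 461, 236 and 131, and 274 and 6. With no minimum, the lower genes numbered 1687 in place of 1086 between T-ALL organs and 172 in place of 100 in bone marrow. Against the macrophage core median, normal organs gave 141 and 9273 in place of 1626 and 1413, and 1263 in place of 536 were higher in T-ALL spleen than T-ALL bone marrow. Bone marrow values of the 7 genes rest on 0 to 59 reads, which limits every ratio to bone marrow.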
